A study of Mus musculus with 6 samples.

Results

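Deep intragenic peaks are accessible sites that lie far inside genes. They were the ATAC-seq peaks whose midpoint fell inside a protein-coding gene body (RefSeq genes of mm10) and more than 10 kb from the nearest end of any protein-coding gene. Of 42632 peaks, each 700 bp wide, 10899 (25.6%) met this rule, in 3886 host genes. ATAC-seq uses a transposase that inserts sequencing adapters into open DNA, so that a count in a peak marks accessible chromatin. The cells were long-term haematopoietic stem cells (LT-HSCs) of C57BL/6 mice aged 10 to 16 weeks, sorted from bone marrow as lineage-negative, Sca1-positive and cKit-positive cells without CD34 and Flt3. For the 3 confined libraries, cells were kept for 13 h in suspension, left for 0.5 h to attach to glass coated with fibronectin, squeezed for 2 h beneath a coverslip on pillars 5 µm high, and taken off the glass with a dissociation reagent. For the 3 unconfined libraries, cells remained in suspension throughout, for 16 h. Attachment, detachment and confinement went together in every confined library and cannot be told apart. The design text calls the libraries biological replicates; whether each came from a separate animal is not given in the sources used here, so p-values measure the spread between these libraries.

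Accessible sites inside long genes are of a few known kinds. Many are enhancers, short stretches that bind transcription factors and act on the host gene or on a neighbour, and in blood stem cells such intronic elements are known for factors such as RUNX1 and ERG. Others are internal promoters, where a shorter transcript of the same gene begins, and these can be CpG islands, dense in unmethylated CG dinucleotides, or CpG-poor. Promoters of CpG islands are open in most cell types, while enhancers tend to be open in few.

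Internal starts could be read from sequence. A start window, 250 bases before to 50 after an annotated RefSeq transcript start (GRCm38.p6, the assembly also called mm10), of the host gene itself overlapped 429 members. The windows printed below are those of 3 peaks that were lower in confined cells and then of all 3 internal-start peaks that were higher, chosen after their values were seen; capitals mark each CG dinucleotide. The first of them, in Stag1, lies at chr9:100643198-100643497 on the plus strand, that of Wdtc1 at chr4:133339266-133339565 on the minus strand and that of Hdac4 at chr1:92180292-92180591 on the minus strand. They held 43, 34 and 32 CG dinucleotides. The windows of Mrtfa at chr15:81104998-81105297 on the minus strand, Tnrc6b at chr15:80798360-80798659 on the plus strand and Synj2 at chr17:5975330-5975629 on the plus strand held 7, 9 and 6. The Tnrc6b peak, at chr15:80797664-80798363, reaches only the first bases of its window. The transcript start and nearly all of the printed letters lie outside that peak.
Stag1: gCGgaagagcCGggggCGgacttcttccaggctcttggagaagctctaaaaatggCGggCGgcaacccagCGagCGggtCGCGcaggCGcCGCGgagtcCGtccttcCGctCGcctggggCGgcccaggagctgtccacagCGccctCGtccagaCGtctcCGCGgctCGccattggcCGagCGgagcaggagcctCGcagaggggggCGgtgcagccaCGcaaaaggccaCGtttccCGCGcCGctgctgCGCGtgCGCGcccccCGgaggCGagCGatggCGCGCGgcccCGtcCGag
Wdtc1: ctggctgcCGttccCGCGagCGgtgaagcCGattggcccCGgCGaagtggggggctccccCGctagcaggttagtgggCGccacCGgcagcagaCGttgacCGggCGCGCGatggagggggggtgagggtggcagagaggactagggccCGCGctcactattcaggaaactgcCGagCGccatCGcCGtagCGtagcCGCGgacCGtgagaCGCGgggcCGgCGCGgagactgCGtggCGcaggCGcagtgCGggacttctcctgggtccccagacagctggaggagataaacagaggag
Hdac4: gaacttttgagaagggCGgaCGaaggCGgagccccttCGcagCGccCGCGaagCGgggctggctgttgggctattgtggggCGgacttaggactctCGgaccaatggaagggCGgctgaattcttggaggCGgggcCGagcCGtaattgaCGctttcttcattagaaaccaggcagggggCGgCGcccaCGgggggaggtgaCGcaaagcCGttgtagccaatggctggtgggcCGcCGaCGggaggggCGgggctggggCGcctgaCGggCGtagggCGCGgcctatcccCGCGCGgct
Mrtfa: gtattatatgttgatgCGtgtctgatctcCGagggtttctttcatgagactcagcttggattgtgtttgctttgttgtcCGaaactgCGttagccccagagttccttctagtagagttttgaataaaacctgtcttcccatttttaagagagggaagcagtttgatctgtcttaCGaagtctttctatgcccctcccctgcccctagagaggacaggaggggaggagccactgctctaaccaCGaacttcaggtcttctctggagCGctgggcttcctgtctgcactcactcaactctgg
Tnrc6b: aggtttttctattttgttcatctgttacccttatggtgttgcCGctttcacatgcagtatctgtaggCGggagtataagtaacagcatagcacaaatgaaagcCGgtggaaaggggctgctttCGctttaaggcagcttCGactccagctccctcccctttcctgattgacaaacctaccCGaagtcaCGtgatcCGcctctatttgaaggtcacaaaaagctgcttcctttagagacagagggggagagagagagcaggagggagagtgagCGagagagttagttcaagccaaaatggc
Synj2: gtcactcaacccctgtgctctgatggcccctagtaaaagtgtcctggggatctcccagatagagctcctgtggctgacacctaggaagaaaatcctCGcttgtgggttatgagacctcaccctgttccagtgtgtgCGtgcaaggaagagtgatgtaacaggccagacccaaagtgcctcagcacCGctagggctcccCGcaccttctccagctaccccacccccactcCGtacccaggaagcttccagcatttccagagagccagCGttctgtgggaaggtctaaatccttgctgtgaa

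Across all members with a listed host gene, the 476 internal start windows held a median of 16 CG dinucleotides, against 7 over all 32851 windows of the table, and a median GC content of 59.7% against 52.7%. The letters GGGCGG, the box bound by SP and KLF factors, stood on either strand in 54.6% of the internal windows and in 35.7% of all windows. That motif itself holds a CG dinucleotide, so both measures overlap. The letters AGATAA of GATA factors stood on either strand in 6.72% and 11.2% of them, and CCGGAAG of ETS factors in 9.03% and 8.86%. These are matches of letters in a window and not shown binding sites. The internal windows all overlap a peak, while the windows of the table were taken whether or not a peak lay there. Start windows at gene-end peaks were not compared. The part of open chromatin in these differences was thus not tested.

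Counts were few in the confined libraries. Totals in peaks were 340922, 221390 and 128257 in confined libraries 1 to 3, and 304898, 1229478 and 983863 in unconfined libraries 1 to 3. The median member held 7, 5 and 3 counts in the confined libraries, against 4, 20 and 12 in the unconfined ones, and 3 counts corresponded to 8.8, 13.6 and 23.4 CPM (the counts of a peak scaled to a common library total), against 9.84, 2.44 and 3.05 CPM. Confined libraries 2 and 3 stood apart: across members, their log2(CPM + 1) correlated with the unconfined libraries at Pearson's r of -0.0107 to 0.0792, while confined library 1 did so at 0.321 to 0.446 and unconfined libraries correlated with each other at 0.54 to 0.718. The confined libraries correlated with each other at 0.0136 to 0.0714, near 0. Whether confined libraries 2 and 3 are of low quality, and the part of library quality in every confined value below, was not tested. These correlations run across members, which share library and depth, and are descriptions. All 10 LT-HSC marker genes had peaks, 79 together, with summed levels of 1610 to 1950 CPM in confined libraries and 1790 to 1880 CPM in unconfined ones. All B-cell, myeloid, erythroid and stromal and endothelial markers had peaks too, so having peaks does not mark LT-HSCs. The LT-HSC sum joins opposite differences. Runx1 had 148 to 414 CPM in confined libraries against 420 to 469 CPM, and Mecom 355 to 420 against 221 to 298 CPM. Of other cell types, the 4 B-cell markers summed to 306 to 361 against 282 to 317 CPM, the 4 myeloid markers to 212 to 265 against 135 to 184 CPM, the 4 erythroid markers to 109 to 270 against 327 to 332 CPM, and the 5 stromal and endothelial markers to 322 to 502 against 246 to 323 CPM. Of the 4 T-cell markers only Tcf7 had peaks, at 126 to 133 against 44.7 to 67.5 CPM. The part of these other cell types in the results below was not tested. In bulk libraries, fewer cells with an open site and less opening per cell cannot be told apart.

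Deep gene bodies held fewer peaks per Mb than the surroundings of gene ends. They covered 735 Mb and held 14.8 peaks per Mb, against 144 per Mb in the 78.4 Mb within 1 kb of a gene end. The density of peaks between genes was not computed. Of the host genes, 1719 held a single member, while 132 genes with 10 or more held 1728 members between them. The median host gene was 88.9 kb long and the median member lay 32.8 kb from the nearest gene end, with the farthest at 1060 kb. Gse1, which encodes a component of the CoREST histone demethylase complex, held the most members, 39. It was followed by Pde4d, a cAMP phosphodiesterase, with 34, by Foxp1, a forkhead factor, and Hivep3, a zinc finger protein, with 26 each, and by Nav2 and Sgms1 with 23 each.

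A larger part of the peak counts fell in deep intragenic peaks in confined than in unconfined cells. These members are 25.6% of all peaks, so counts spread evenly over peaks would give that share. Members took 23.8% of the counts of confined library 1 (95% Clopper-Pearson interval 23.6 to 23.9), 26.7% of confined library 2 (26.5 to 26.9) and 26.1% of confined library 3 (25.9 to 26.4). In unconfined libraries 1 to 3 they took 19.5% (19.4 to 19.7), 20.4% (20.4 to 20.5) and 18.8% (18.7 to 18.9). The groups did not overlap, and every confined library was above its same-numbered unconfined one. The means were 25.5% ± 1.54 in confined cells and 19.6% ± 0.826 in unconfined cells (SD, n = 3 each), a difference of 5.95 percentage points. The two-sided exact permutation test gave p = 0.1, the smallest that 3 against 3 libraries allow (0.1 after Benjamini-Hochberg adjustment over 7 comparisons of this kind). With library numbers kept as pairs, the exact p was 0.25, again the smallest possible. The intervals cover counting error only. Confined library 1, which kept part of the unconfined pattern, differed by itself by 4.19 points.

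Set against an average peak, a member held 0.93, 1.04 and 1.02 times the mean count per peak in confined libraries 1 to 3, and 0.763, 0.799 and 0.735 times in unconfined libraries 1 to 3. Peaks within 1 kb of a gene end held 1.17, 0.905 and 0.907 times the mean in confined libraries and 1.56, 1.46 and 1.63 times in unconfined ones. Deep intragenic sites were thus weaker than the average peak in every unconfined library and close to it in the confined ones. Intergenic peaks over 10 kb from a gene end gave 0.907, 1.05 and 1.04 against 0.75, 0.784 and 0.718, near the values of the members, so this measure does not set deep intragenic peaks apart from distal peaks outside genes.

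**Figure D1:**
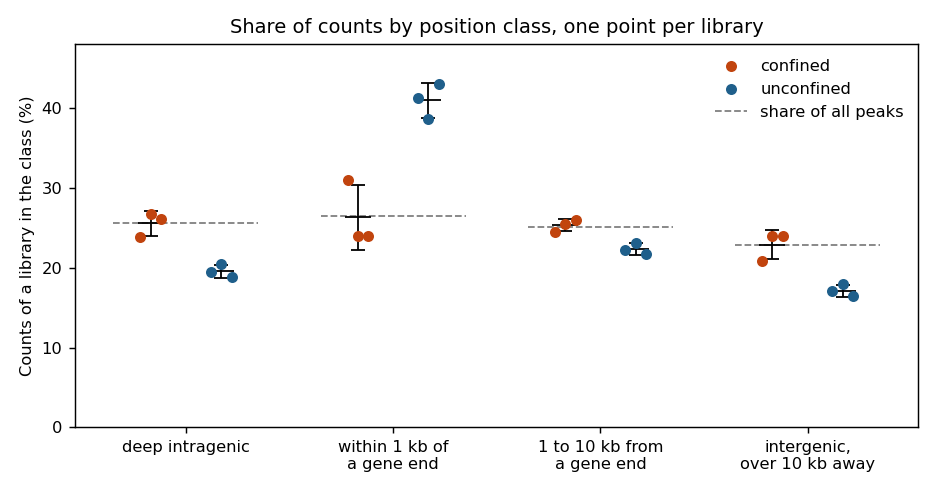
Percent of each library's counts (vertical axis) in each of 4 position classes of peaks (horizontal axis); points are libraries, bars are mean and SD of 3 libraries, confined left and unconfined right, and dashed lines give each class's share of all peaks. Deep intragenic peaks took 23.8% to 26.7% of counts in confined libraries and 18.8% to 20.4% in unconfined ones.

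Members that ranked high in unconfined cells held less over those that ranked low there in all 3 confined libraries than in unconfined ones. Members were ranked by their level in unconfined libraries, leaving out the library being measured. The 10% of members that ranked highest held 2.35, 1.12 and 1.04 times the counts of the 10% that ranked lowest in confined libraries 1 to 3. In unconfined libraries 1 to 3 the ratio was 5.14, 3.36 and 5.54. The groups did not overlap, and confined library 1 lay between its partners and the unconfined libraries. The ratio averaged 1.51 ± 0.737 in confined cells and 4.68 ± 1.16 in unconfined cells (SD, n = 3 each), with p = 0.1 by the same exact permutation test. Setting confined library 1 alone against the unconfined ones gave a difference of -2.32, against -3.17 with all 6. Among members of listed host genes that overlapped no internal start, the ratio was 2.33, 1.17 and 1.06 in confined libraries and 4.87, 3.24 and 5.29 in unconfined ones, again without overlap. When every library was thinned to the smallest total, the ratios were 2.05, 1.18 and 0.988 in confined libraries and 4.14, 2.9 and 4.47 in unconfined ones. With the ranking taken from the confined libraries other than the one measured, the ratios were 1.09, 1.24 and 1.2 in confined libraries 1 to 3 and 2.21, 1.83 and 2.21 in unconfined libraries 1 to 3. That ranking was chosen after the data were seen. A library whose counts follow another order, or are noisy, gives a ratio nearer to 1 under either ranking, so the ratio is no measure of the spread between strong and weak sites within a library.

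**Figure D2:**
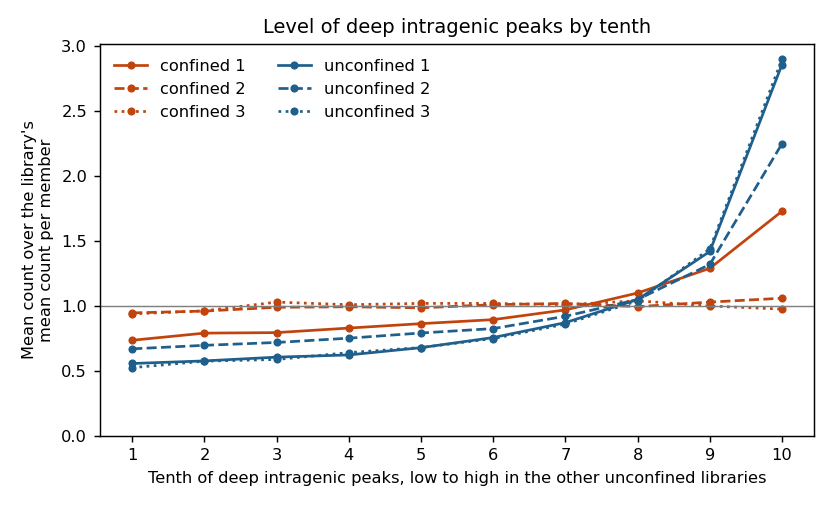
Mean count per member, divided by the library's mean over all members (vertical axis), for 10 equal bins of the members ordered by level in the unconfined libraries other than the one measured (horizontal axis); each line is a library. The highest bin stood at 1.73, 1.06 and 0.976 in confined libraries 1 to 3 and at 2.25 to 2.9 in unconfined ones.

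Single members changed in both directions. Of 10899 members, all of which passed the group-blind minimum of 15 counts summed over 6 libraries, 197 were higher in confined cells (1.81%, against 1.44% of all 42627 peaks tested) and 135 were lower (1.24%, against 4.51% of all peaks). The test was edgeR's quasi-likelihood test with Benjamini-Hochberg adjustment over all peaks and a threshold of 0.05. The share called higher lay near the background, and the share called lower below it; peaks within 1 kb of a gene end had 0.284% higher and 12.3% lower. The median log2 fold change (confined over unconfined) was 0.33 over members (quartiles -0.16 and 0.79), 0.35 over intergenic peaks, -0.60 over gene-end peaks and 0.11 over all peaks tested. With library totals as the only scaling, the median of all peaks was 0.32 and that of members 0.54, which left the difference of 0.22 as it was, and 308 members were higher and 75 lower (2.28% and 2.66% of all peaks). The 197 higher members had a median level of 35.8 CPM in confined cells and 9.83 CPM in unconfined cells, and the 135 lower members 17.3 and 65.0 CPM, while the median over all members was 20.8 and 15 CPM. These levels are the values that made the calls, so a low unconfined level goes with a higher call by selection. The part of level in the calls was not tested.

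These calls rest on individual libraries. The labels give same-numbered libraries a shared experimental batch, and with that number as a block 2 members were higher (Zfp821, log2 fold change 2.63, adjusted p = 0.0251, and Nktr, 2.78, adjusted p = 0.0338) and none was lower, against 0.0188% and 0.00938% of all peaks (edgeR; 1297 higher and 526 lower at an unadjusted p under 0.05). Leaving out confined library 1 gave 384 higher and 399 lower members, leaving out confined library 2 gave 9 and 0, and leaving out confined library 3 gave 50 and 23. Leaving out unconfined library 1 gave 33 and 6, unconfined library 2 gave 89 and 64, and unconfined library 3 gave 0 and 0. The last fit gave 677 higher and 364 lower members at an unadjusted p under 0.05, and the fit without confined library 2 gave 413 lower ones. Over all peaks these fits called 0% to 2.81% higher and 0.00235% to 9.99% lower. DESeq2 gave no adjusted p to 9732 of the 10899 members, among them all but 22 of the 197 higher ones, and called 19 members higher and 166 lower, against 0.228% and 5.33% of all peaks. Against confined library 1 alone no member passed (edgeR; 467 higher and 335 lower at an unadjusted p under 0.05), and the median was 0.14 over members against -0.06 over all peaks.

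Internal starts, possible promoters of shorter transcripts, were counted apart from the other members. They took 4.45%, 3.33% and 3.53% of member counts in confined libraries 1 to 3, and 6.38%, 5.58% and 6.64% in unconfined libraries 1 to 3, so the groups did not overlap. Relative to members of listed host genes without a start window, the mean count at an internal start was 0.957 ± 0.159 times as large in confined cells and 1.62 ± 0.153 times as large in unconfined cells (SD, n = 3 each). Of the 429, 28 were lower (6.53%, against 4.51% of all peaks) and 3 higher (0.699%, against 1.44%), with a median log2 fold change of -0.33. Of 8238 members in listed genes without an internal start, 81 were lower (0.983%) and 153 higher (1.86%), with a median of 0.35. The 2232 members whose host gene the start table does not list gave 26 lower, 41 higher and a median of 0.35. These sets were formed after values were seen, so no test is given.

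Internal starts were also divided by the base composition of the window. The 225 members with 15 or more CG dinucleotides in a window, as in the printed windows of Stag1, Wdtc1 and Hdac4, had 24 lower (10.7%) and 0 higher calls (edgeR; 1 higher at an unadjusted p under 0.05, 0 by DESeq2) and a median log2 fold change of -0.69. The 204 with fewer, as in those of Mrtfa, Tnrc6b and Synj2, had 4 lower and 3 higher calls and a median of -0.06. CpG-rich internal starts stood at 1.08, 0.729 and 0.738 times the level of members without a start in confined libraries, against 1.88, 1.58 and 1.97 times in unconfined ones. CpG-poor internal starts stood at 1.2, 0.966 and 1.06 times in confined libraries, against 1.43, 1.31 and 1.5 times in unconfined ones. The CpG-rich windows marked the stronger sites in unconfined cells, so composition and level moved together and were not tested apart.

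**Figure D3:**
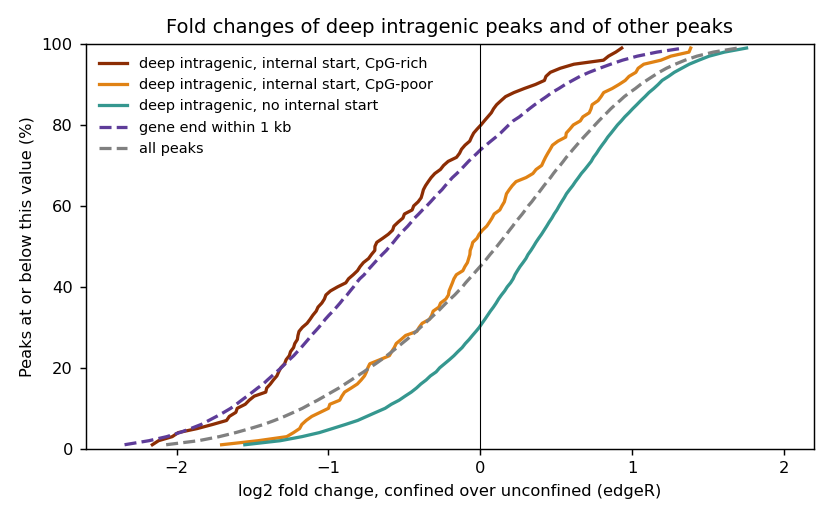
Cumulative share of peaks (vertical axis, percent) at or below each log2 fold change, confined over unconfined (horizontal axis), for deep intragenic peaks at CpG-rich internal starts, at CpG-poor internal starts and without an internal start, beside peaks within 1 kb of a gene end and all peaks. The medians were -0.69, -0.06 and 0.35 for the first 3, -0.60 for gene-end peaks and 0.11 for all peaks.

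The member with the smallest p among those lower in confined cells was an internal start of Stag1, which encodes a subunit of cohesin, the ring complex that extrudes chromatin loops. The peak at chr9:100642910-100643609 had 22.4, 8.48 and 13.5 CPM in confined libraries 1 to 3 and 101, 75.8 and 119 CPM in unconfined libraries 1 to 3. All confined values, from 8, 2 and 2 counts, lay below all unconfined ones, from 28, 92 and 102 counts. The log2 fold change was -2.61 (SE 0.58, adjusted p = 0.00582 by edgeR). Its window, printed above, was the richest in CG dinucleotides of the 6 shown. The internal start of Wdtc1, a WD-repeat protein known for restraining fat storage, at chr4:133338994-133339693 had 28.0, 12.7 and 0 CPM in confined libraries and 90.5, 65.1 and 105 CPM in unconfined ones. The confined values came from 10, 3 and 0 counts. The groups did not overlap, and the log2 fold change was -2.34 (SE 0.55, adjusted p = 0.00879 by edgeR). The internal start of Hdac4, a class II histone deacetylase, at chr1:92180240-92180939 was among the strongest of all members in unconfined cells. It had 67.1, 33.9 and 13.5 CPM in confined libraries and 235, 121 and 206 CPM in unconfined ones, again without overlap (log2 fold change -2.11 with SE 0.63, adjusted p = 0.0282 by edgeR).

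Lower members without a start window included sites in genes of signalling and transcription. In Rbpj, the DNA-binding partner of Notch, the peak at chr5:53588974-53589673 had 16.8, 8.48 and 0 CPM in confined libraries and 61.6, 42.8 and 52.6 CPM in unconfined ones. In Cyria, a Rac1-binding regulator of actin assembly, the peak at chr12:12301720-12302419 had 25.2, 8.48 and 13.5 CPM in confined libraries and 112, 54.4 and 98.2 CPM in unconfined ones. Confined values came from 6, 2 and 0 counts in Rbpj and from 9, 2 and 2 in Cyria. The groups were separate at both sites, with log2 fold changes of -2.23 (SE 0.54, edgeR adjusted p = 0.0106) and -2.30 (SE 0.55, adjusted p = 0.00946). In Trappc9, a subunit of a vesicle-tethering complex, the peak at chr15:72928770-72929469 had 47.6, 12.7 and 0 CPM in confined libraries and 203, 85.7 and 131 CPM in unconfined ones. Its confined values came from 17, 3 and 0 counts. The Trappc9 peak reached -2.43 (SE 0.59, edgeR adjusted p = 0.0106), with unconfined library 1 the highest of all. In Prdm2, a zinc finger protein linked to histone methylation, the peak at chr4:143161858-143162557 had 28.0, 12.7 and 6.77 CPM in confined libraries and 97.8, 67.6 and 88.9 CPM in unconfined ones, with a log2 fold change of -2.17. The remaining 4 of the 10 lower members with the smallest p lay in Sash1, a scaffold protein (-2.20), Acaca, acetyl-CoA carboxylase of fatty acid synthesis (-2.16), Jakmip1, a microtubule-binding protein (-2.18), and Mapre2, a protein of microtubule plus ends (-2.11). Over these 10, adjusted p ran between 0.00582 and 0.0123. With the batch number as a block their log2 fold changes were -2.82 to -2.16 and their adjusted p 0.0507 to 0.0602, just above the threshold, while the sums over all members of Stag1, Wdtc1 and Acaca passed with it (adjusted p = 0.0063, 0.0163 and 0.0154, edgeR). Without confined library 1 the 10 stood at -4.12 to -2.10, and Trappc9 had the lowest value. None of the 10 passed without confined library 2 (adjusted p 0.0562 to 0.151, edgeR) or without unconfined library 3 (0.122 to 0.159). Groups that do not overlap were common: all confined libraries were below all unconfined ones in 7.98% of members and 17.1% of peaks, and above them in 14.6% of members and 11.1% of peaks.

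The higher members with the smallest p had low levels in unconfined cells, which the call itself favours. In Dpp9, a cytosolic peptidase that restrains inflammasome sensors, the peak at chr17:56199697-56200396 had 22.4, 63.6 and 461 CPM in confined libraries and 14.5, 9.89 and 38.6 CPM in unconfined ones. Confined library 3, with 68 counts, was far above its partners, and confined library 1 lay below unconfined library 3. The log2 fold change was 2.91 (SE 0.52; adjusted p = 0.000374 by edgeR). Without confined library 3 it was 0.87 (adjusted p = 0.262), and 0.04 when confined library 1 stood alone for its group, so the value rests on confined library 3. In Zfp821, a zinc finger protein, the peak at chr8:109706771-109707470 had 16.8, 50.9 and 135 CPM in confined libraries and 7.24, 10.7 and 12.9 CPM in unconfined ones. The groups did not overlap (log2 fold change 2.31 with SE 0.44, adjusted p = 0.00179 by edgeR), and without confined library 3 the value was 1.47 (adjusted p = 0.114). In Nktr, a cyclophilin-related protein of natural killer cells, the peak at chr9:121743960-121744659 had 22.4, 55.1 and 61.0 CPM in confined libraries, from 8, 13 and 9 counts. It had 0, 9.89 and 8.19 CPM in unconfined libraries, from 0, 12 and 7 counts. Confined libraries were all higher (log2 fold change 2.39 with SE 0.51, adjusted p = 0.00473 by edgeR).

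Of the other higher members, that in Spata13, an exchange factor for Rac1 and Cdc42, at chr14:60688605-60689304 had 33.6, 50.9 and 47.4 CPM in confined libraries and 3.62, 8.24 and 12.9 CPM in unconfined ones. The confined libraries were close to each other, and the log2 fold change was 2.16 (SE 0.48; adjusted p = 0.00616 by edgeR). Spata5, an ATPase of ribosome maturation, had 33.6, 46.6 and 74.5 CPM in confined libraries and 10.9, 11.5 and 9.36 CPM in unconfined ones at chr3:37481219-37481918. Gpr158, an orphan receptor known from brain, had 19.6, 59.3 and 40.6 CPM in confined libraries and 7.24, 5.77 and 8.19 CPM in unconfined ones. Neither overlapped between groups, and log2 fold changes were 2.13 and 2.41. Ide, the insulin-degrading enzyme, reached 2.01 and Ak5, an adenylate kinase, 2.03, each without overlap. Their values were 2.63 and 3.91 without unconfined library 2, but 1.62 and 1.55 without unconfined library 3. When confined library 1 stood alone for its group, they were 0.95 and 1.08. Neither peak passed without confined library 2 or without unconfined library 3 (edgeR). With the batch number as a block, both had an adjusted p of 0.0507 (edgeR), just above the threshold. Myo16, an unconventional myosin, had 5.59, 127 and 74.5 CPM in confined libraries and 25.3, 15.7 and 14 CPM in unconfined ones. There confined library 1 lay below every unconfined library, and the log2 fold change of 1.90 was 0.76 without confined library 2 (adjusted p = 0.539) and -1.57 when confined library 1 stood alone for its group. Across all 197 higher members, the median was 25 counts summed over the confined libraries and 24 over the unconfined ones, and across the 135 lower members 14 and 147. In a simulation whose libraries all shared a single profile and dispersion, 60% of peaks raised 4-fold were called and 10% of those lowered 4-fold. No peak changed 2-fold was called there.

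**Figure D4:**
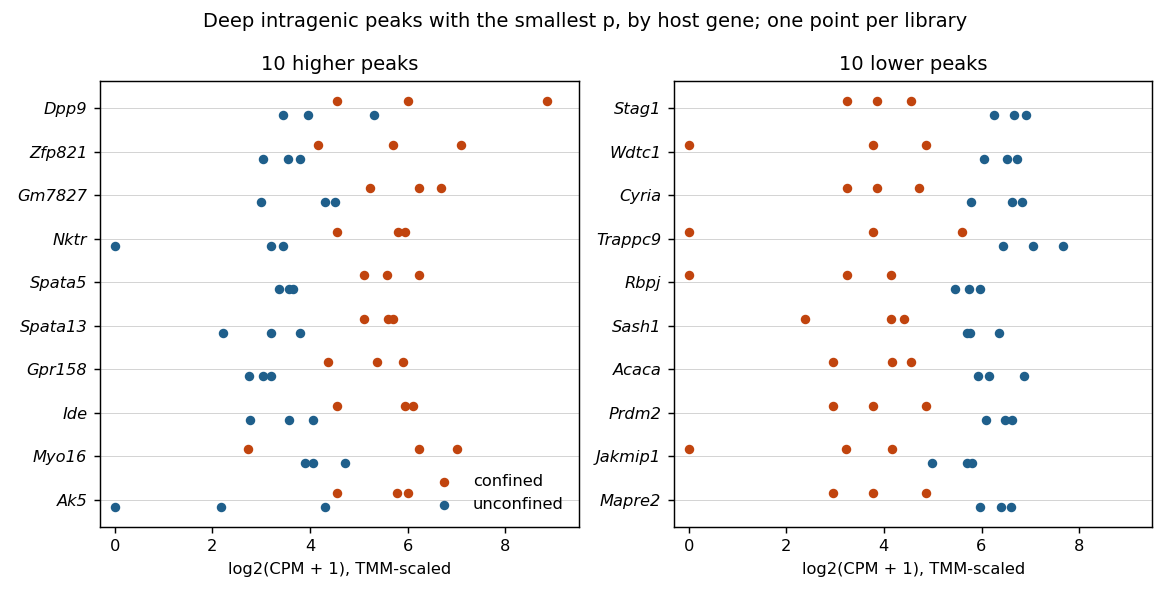
Level of the 10 higher (left) and 10 lower (right) deep intragenic peaks with the smallest p, as log2(CPM + 1) with TMM scaling (horizontal axis), by host gene; each point is a library, confined drawn above unconfined. The groups overlap in Dpp9 and Myo16, and in none of the lower peaks.

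Of the 8 strongest members of unconfined cells, 6 were lower in confined ones. Besides Hdac4, they were in Agpat3, an acyltransferase of phospholipid synthesis, Arid1b, a subunit of the BAF remodelling complex, St3gal2, a sialyltransferase, Ptprs, a receptor phosphatase, Vav1, the exchange factor of blood cells for Rac, Evi5, a regulator of Rab GTPases, and Lims1, an adaptor of integrin adhesions. Arid1b at chr17:5327513-5328212 had 75.5, 33.9 and 13.5 CPM in confined libraries and 192, 125 and 207 CPM in unconfined ones (log2 fold change -1.91 with SE 0.61, adjusted p = 0.0398 by edgeR). Vav1 at chr17:57290333-57291032 had 101, 46.6 and 27.1 CPM in confined libraries and 170, 122 and 181 CPM in unconfined ones. The groups did not overlap at either, but Vav1 did not pass (log2 fold change -1.31, SE 0.58, adjusted p = 0.149). Ptprs, an internal start, likewise did not pass (-1.40, adjusted p = 0.122). The other 6 passed, with log2 fold changes of -2.11 to -1.82. Since they were chosen by the unconfined level, this is a description. In a fit of the 439 peaks that averaged at least 50 counts, which centres the fold changes on strong peaks, the values of St3gal2, Evi5 and Lims1 were 0.12, 0.12 and 0.11, those of Ptprs and Vav1 were 0.52 and 0.59, and those of Hdac4, Arid1b and Agpat3 were -0.16, -0.00 and -0.09. None of the 8 passed in that fit. Without confined library 1, Evi5 stood at -3.91, while without confined library 2 none of the 8 passed (edgeR).

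The highest members of confined cells were other peaks. They were chosen by the confined level, which favours higher calls among them, so their values are a description. Apart from Dpp9, 4 of the 8 lay in Gm7827, a predicted gene whose role is not annotated here, and the remaining 3 in Clstn1, a synaptic calsyntenin, Flt1, a VEGF receptor, and Kcnip1, a potassium channel subunit. Clstn1 at chr4:149613475-149614174 had 55.9, 89.0 and 108 CPM in confined libraries and 29.0, 31.3 and 15.2 CPM in unconfined ones (log2 fold change 1.69 with SE 0.43, adjusted p = 0.0127 by edgeR). The Flt1 peak did not pass: it had 50.4, 127 and 67.7 CPM in confined libraries and 145, 28.0 and 56.1 CPM in unconfined ones, with unconfined library 1 the highest of all 6 (0.25, adjusted p = 0.798), and its value turned negative in 4 of the alternatives.

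Counts were also summed over the members of each host gene, which raises the counts behind a value. Of 3886 host genes, 92 sums were higher in confined cells (the background over the 35614 features of that table was 1.69%) and 44 lower (5.96%), by edgeR with adjustment over the whole table. With the batch number as a block, 39 were higher and 26 lower (background 0.851% and 3.45%). Without unconfined library 3, the sums of Dpp9, Gm7827 and Stag1 passed and no other. Without confined library 3, the Dpp9 sum had 0.95 on the log2 scale in place of 2.94 (adjusted p = 0.212). Leaving out confined library 1 gave 290 higher and 112 lower sums, confined library 2 gave 15 and 8, confined library 3 gave 69 and 27, unconfined library 1 gave 27 and 15, and unconfined library 2 gave 63 and 38. Over all features of that table, these fits called 0.0281% to 3.87% higher and 0.334% to 10.3% lower. Of the 136 called sums, 63 came from a single member and 42 held no member that passed by itself.

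Gm7827 had the smallest p of all host sums. All 6 of its members had a positive log2 fold change, and their sum was 253, 585 and 471 CPM in confined libraries and 218, 149 and 101 CPM in unconfined ones (1.52 on the log2 scale, SE 0.27, edgeR adjusted p = 0.000203). Confined library 1 was just above unconfined library 1, and its partners stood well above all unconfined libraries. Atg4a, a protease of autophagy on chromosome X, also had 6 members, all positive. Its sum was 142, 195 and 235 CPM in confined libraries and 73.8, 93.0 and 65.1 CPM in unconfined ones (1.26, SE 0.32, edgeR adjusted p = 0.00973). How reads that map to several places were counted is not given in the sources used here, which limits values at repeated sequence.

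In the other direction, Tex14, a kinase-like protein of germ cell bridges, had 7 members, 6 of them negative. Their sum was 293, 269 and 187 CPM in confined libraries and 636, 359 and 548 CPM in unconfined ones (log2 fold change -1.01 with SE 0.23, adjusted p = 0.00333 by edgeR). Tmem29, on chromosome X, had 2 negative members and summed to 62.7, 34.7 and 13.8 CPM in confined libraries and 141, 123 and 169 CPM in unconfined ones (-1.78, SE 0.39, edgeR adjusted p = 0.00238). Neither gene overlapped between groups. The 39 members of Gse1 summed to 960, 1090 and 672 CPM in confined libraries and 1220, 1180 and 1370 CPM in unconfined ones. All confined sums were lower, by a small margin in confined library 2 (-0.46, SE 0.15, edgeR adjusted p = 0.0456). Of the other 7 genes with most members, among them Pde4d (0.12), Foxp1 (0.38) and Etv6 (0.28), none had a sum that passed.

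In 10 of the 306 host genes with a called member, members were called in both directions. They were Chn2, Cyrib, Gramd1b, Hs6st3, Igf1r, Lrrfip1, Osbpl3, Pde4b, Plxnc1 and Septin9. With the batch number as a block no member was called lower, so no gene then had calls both ways. In Igf1r, the IGF1 receptor, the peak at chr7:68128909-68129608 had 42.0, 12.7 and 20.3 CPM in confined libraries and 54.3, 75 and 102 CPM in unconfined ones (log2 fold change -1.53, edgeR adjusted p = 0.0471). The Igf1r peak at chr7:68160018-68160717 had 14, 55.1 and 47.4 CPM in confined libraries and 14.5, 11.5 and 10.5 CPM in unconfined ones (1.58, adjusted p = 0.0362). At the second peak the groups overlapped, since confined library 1 lay below unconfined library 1. The first was the stronger in unconfined cells and the second was weak there, which the calls themselves favour. Chn2, a Rac-specific GTPase activator, likewise had its lower call at the peak stronger in unconfined cells. It had -2.02 at a peak with 68.8, 56.0 and 73.7 CPM in unconfined libraries and 1.5 at one with 7.24, 13.2 and 11.7 CPM there.

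At 10 loci of stem cell regulators, the member with most counts summed over the 6 libraries was examined. Of these 1 passed, the lower peak in Etv6, while of all peaks 1.44% were higher and 4.51% lower. Most counts came from unconfined libraries 2 and 3. The choice thus favours peaks strong in unconfined cells, and with them values below 0, so these values do not describe a locus as a whole. In Runx1, the factor needed for blood stem cells to form, the member with most counts at chr16:92620779-92621478 had 39.2, 21.2 and 0 CPM in confined libraries and 47.1, 63.4 and 72.5 CPM in unconfined ones. All confined values were lower, but the difference missed the threshold (-1.36 on the log2 scale, SE 0.49, edgeR adjusted p = 0.0673). Meis1, a homeobox factor of stem cell maintenance, had 58.7, 33.9 and 27.1 CPM in confined libraries and 120, 72.5 and 105 CPM in unconfined ones at chr11:18969762-18970461, without overlap (-1.18, SE 0.51, adjusted p = 0.14). The Erg peak, an internal start at chr16:95459049-95459748, overlapped between groups (-0.87, adjusted p = 0.246; 0.09 with edgeR's filterByExpr minimum). Etv6, an ETS repressor needed for adult stem cells, had 28.0, 25.4 and 13.5 CPM in confined libraries and 109, 58.5 and 74.8 CPM in unconfined ones at chr6:134186177-134186876. That peak was lower (-1.68, SE 0.51, edgeR adjusted p = 0.0323) and also overlaps a start window of Gm52920. Members with most counts in Mecom (-0.07), Hlf (1.16), Fli1 (-0.00), Cdk6 (0.57), Kit (0.43) and Ikzf1 (-0.69) did not pass, with adjusted p of 0.132 to 0.998, and the signs of Mecom and Cdk6 turned when a library was left out. At Hlf, a factor specific to stem cells, the confined libraries had 19.6, 46.6 and 27.1 CPM and the unconfined ones 18.1, 14 and 10.5 CPM.

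The calls in each list of host genes are read against the 1.44% higher and 4.51% lower of all peaks. Of 239 members in stem cell transcription factor genes, 3 were higher and 3 lower, with a median log2 fold change of 0.23. The higher ones included peaks in Foxp1 (1.92) and a second Mecom peak (1.67), and the lower ones in Etv6 and the nuclear factor I genes Nfia (-1.79) and Nfix (-1.53). Of 90 members in receptor and surface protein genes, 1 was higher and 3 were lower (median 0.24), the lower ones in Igf1r, Ptprc, the CD45 phosphatase (-1.54), and Tgfbr2, a TGF-beta receptor (-1.56). Lymphoid and myeloid lineage genes had 1 higher and 1 lower of 122 members (median 0.31), in the adaptor gene Fyb and the phospholipase gene Plcg2. Genes of other marrow cell types had 0 of 27 in either direction (median 0.32; edgeR, 1 higher and 3 lower at an unadjusted p under 0.05, and 0 by DESeq2).

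Of 258 members in genes of adhesion, cytoskeleton and nuclear envelope, 7 were higher and 1 was lower (2.71% and 0.388%, median 0.37). DESeq2, which gave an adjusted p to 29 of them, called 0 higher and 1 lower. None of the 7 passed with the batch number as a block (edgeR). The lower one was in Nav2 (-1.52). Among the members with most counts, a choice that favours peaks strong in unconfined cells, those in Col4a1 (-0.78) and Lmnb1 (-0.62) were below 0 and did not pass. The higher ones included Tead1, the DNA-binding partner of YAP (1.93), Dst, a cytoskeletal linker (1.94), Parvb, an adaptor of integrin adhesions (2.22), both called peaks of Myh9, the non-muscle myosin heavy chain (1.46 and 1.72), and the internal start of Mrtfa, the actin-sensing coactivator of SRF. Mrtfa had 25.2, 55.1 and 27.1 CPM in confined libraries and 7.24, 11.5 and 9.36 CPM in unconfined ones at chr15:81104667-81105366 (log2 fold change 1.79 with SE 0.50, adjusted p = 0.0218 by edgeR). The other higher peaks that overlapped an internal start window had log2 fold changes of 2.39 in Tnrc6b, a partner of Argonaute, and 1.39 in Synj2, an inositol phosphatase. In Tnrc6b the start itself lies outside the peak.

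Chromatin genes had 4 higher and 6 lower of 159 members (2.52% and 3.77%; median 0.31). Lower members lay in Stag1, Prdm2, Hdac4, Arid1b, the remodeller gene Chd9 (-2.05) and the deacetylase gene Hdac5 (-1.67), and higher ones in the histone demethylase genes Kdm2b (2.05) and Kdm4b (1.61), in Baz2b, a bromodomain protein (1.58), and in Jarid2, a Polycomb partner (1.92). Very long neuronal genes, listed because they are mostly silent in blood, had 2 higher and 3 lower of 179 members and a median of 0.41, at 0.817, 1.03 and 0.925 times the mean count per peak in confined libraries and 0.679, 0.675 and 0.585 times in unconfined ones. Chromatin genes gave 0.996, 1.01 and 1.01 in confined libraries and 0.966, 0.963 and 0.979 in unconfined ones. In unconfined cells the members of neuronal genes lay well below the average peak and those of chromatin genes close to it.

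**Figure D5:**
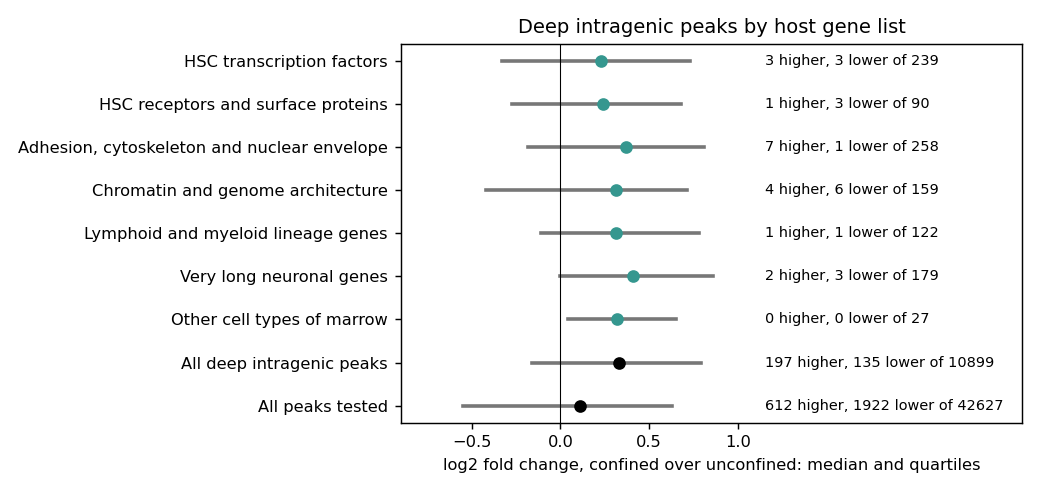
Median (points) and quartiles (bars) of the log2 fold change, confined over unconfined (horizontal axis), of deep intragenic peaks in lists of host genes, beside all deep intragenic peaks and all peaks tested, with counts of calls. List medians ran from 0.23 for stem cell transcription factors to 0.41 for very long neuronal genes.

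Members were also divided by depth inside the gene, with no test between the bins. The 3166 members 10 to 20 kb, 4083 members 20 to 50 kb, 2147 members 50 to 100 kb and 1503 members over 100 kb from the nearest gene end had median log2 fold changes of 0.30, 0.33, 0.35 and 0.37, in that order. Of them 1.71%, 1.79%, 1.72% and 2.2% were higher, beside 1.44% of all peaks, and 1.58%, 1.32%, 0.838% and 0.865% were lower, beside 4.51%. Around the limit of the rule, the 411 peaks 10 to 11 kb from a gene end had a median of 0.31, and the 498 intragenic peaks at 9 to 10 kb, just outside it, had 0.26. Members that were the only one in their gene had a median of 0.38 and those in genes with 10 or more had 0.29.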

How the data were processed

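ATAC-seq libraries (3 confined, 3 unconfined) were grouped by the sample titles. The authors deposited raw counts per peak and peak coordinates. The submitters' processing notes name featureCounts, R 4.2.0, SAMtools 1.14 and the build mm10. Not given in the sources used here are the aligner, the peak caller and the libraries it read, the treatment of duplicates and multi-mapping reads, and whether reads were shifted for the transposase. Peaks called mostly on the deeper unconfined libraries would miss sites open in confined cells alone.

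Peaks were placed by RefSeq gene starts and ends, which give no exons. The 42627 peaks with at least 15 counts over the 6 libraries were tested with edgeR 4.0.16 (R 4.3.3; TMM; glmQLFit, glmQLFTest; a group term alone; two-sided; Benjamini-Hochberg over all peaks). CPM of single peaks and of host sums are TMM-scaled. The marker sums, the CPM of 3 counts and the correlations use library totals alone, so they stand on another scale. SE is the fold change over the root of F, and single values were compared by exact permutation (SciPy 1.17.1, Python 3.11.15). DESeq2 1.42.0, other filters, scalings and distance limits, left-out libraries, thinning to 128257 counts and a batch block were alternatives. On simulated counts for all tested peaks the fit called none of 42397 unchanged peaks. The simulated libraries were all drawn from a single pooled profile, with a common dispersion and no batch. Confined libraries 2 and 3 share no such profile, so the simulation gives no rate of false calls for these data.

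The pairing comes from the batch label. Deviations from group means of same-numbered libraries correlated at 0.0437, 0.0597 and -0.047. Members, gene lists and rules were chosen with earlier results of these data known. The text names the 10 members and 10 host sums with the smallest p in each direction, the 8 highest members per group, the 8 genes with most members, the most-counted members of 10 stem cell loci and the called members of lists, in part; a list and a called member are not reported here. Sets by internal start and CpG number were chosen after seeing the data. Planned sequence features of whole peaks were not run, since no genome was used here.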

Additional observations from a re-analysis of the deposited data

How the results depend on the processing

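The count share of deep intragenic peaks and the ratio of high to low members kept their direction under every alternative run; the share difference was 5.38 to 6.83 points and the ratio difference -3.60 to -2.56 with a library left out. The counts of called members did not hold. Against 197 higher and 135 lower, the batch number as a replicate block gave 2 and 0 (0.0188% and 0.00938% of all peaks). Library totals as the only scaling gave 308 and 75 (2.28% and 2.66%). DESeq2 gave 19 and 166 (0.228% and 5.33%), with no adjusted p for 9732 members. The filterByExpr minimum of edgeR gave 148 and 8 of 1386 members tested (5.79% and 2.42% of all peaks tested there). A mean of at least 50 counts gave 0 and 0 of 21 (0.683% and 0%), with 2 higher at an unadjusted p under 0.05 (edgeR). Thinning gave 12 and 7 of 5451 (0.195% and 0.586%). A 20 kb limit gave 143 and 85 of 7733, beside 1.44% and 4.51% of all peaks. Of all calls, 59.3% were higher, against 80.4% with total scaling, 10.3% with DESeq2 (1167 members with an adjusted p) and 94.9% with filterByExpr. With a library left out, higher calls ran from 0 to 384 and lower calls from 0 to 399. The member median of 0.33 was 0.54 with total scaling, 0.08 at a mean of at least 50 counts and 0.14 with confined library 1 alone.

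Host gene sums, 92 higher and 44 lower (1.69% and 5.96% of all features), gave 39 and 26 with the replicate block (0.851% and 3.45%). Total scaling gave 213 and 28 (2.7% and 4.56%), and filterByExpr 1002 and 11 of 2172 (13.7% and 7.46%). A mean of at least 50 counts gave 302 and 6 of 612 (29.5% and 35.8%), and thinning 64 and 6 of 2977 (0.801% and 2.02%). With a library left out the sums ran from 2 to 290 higher and 1 to 112 lower. All 20 named sums passed with the block. Under at least 1 alternative, 5 of the 77 named members that passed and 13 of the 28 that did not turned sign. Values that turned included Myo16 (-1.57, confined library 1 alone), Erg (0.09, filterByExpr) and, at a mean of at least 50 counts, St3gal2 (0.12), Ptprs (0.52), Vav1 (0.59), Evi5 (0.12), Lims1 (0.11) and Stard13 (0.08), and also Flt1 (-0.36 to -0.04 in 4 alternatives), Cdk6 (-1.97, confined library 1 alone) and Mecom (0.25 without confined library 1). The cause was not tested, except that filters on high counts test fewer peaks. In the simulation, whose libraries shared a single profile, no single peak changed 2-fold was called at this depth.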

Other observations

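Members near other transcripts were few. The 333 within 1 kb of a long noncoding RNA gene end had 2 higher and 17 lower calls in confined cells (0.601% and 5.11%, against 1.44% and 4.51% of all peaks) and a median log2 fold change of -0.00, against 0.33 over all members. The 111 members that overlapped a start window of another gene but none of their host gene had 1 higher and 5 lower calls and a median of 0.13. A microRNA hairpin lay inside 5 members, with a median of 0.35. The 150 members on chromosome X had 5 higher and 2 lower calls and a median of 0.50, at 0.821, 1.06 and 1.25 times the mean count per peak in confined libraries 1 to 3 and 0.672, 0.707 and 0.667 times in unconfined libraries 1 to 3. The 57 members inside more than 1 gene had 1 higher and 1 lower call and a median of 0.21.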
